A study of Homo sapiens with 24 samples.

Results

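The genes described are the D-type cyclins CCND2 and CCND3, their kinases CDK4 and CDK6, the CDK inhibitors CDKN1A, CDKN1B, CDKN2B, CDKN2C and CDKN2D, and RB1. They were chosen by name as 10 genes of the G1 phase, and a gene was read from the transcript clusters (sets of array probes that stand for a transcript locus) whose only symbol in the platform annotation was that gene. In all, 9 of the 10 genes had 1 cluster each, among 19460 clusters with a single symbol, and CDKN2C was not listed there and has no value here. The cells were L1236, an established Hodgkin lymphoma (HL) line of B cell origin, in which the NF-κB dimers of both the canonical and the non-canonical pathway are active. In the p50/RelA KD, siRNAs were aimed at NFKB1 (1 µM, 3 days) and RELA (500 nM, 2 days). In the p52/RelB KD they were aimed at NFKB2 (500 nM, 2 days) and RELB (1 µM, 3 days). The siRNAs were delivered in medium with 1% serum. Cells were collected 1 day after normal serum conditions returned, which the paper places 1 day before apoptosis set in. The part of this serum change in the values was not tested. Each KD had 6 arrays, made of 2 siRNA sequences per gene in 3 replicates, and was set against 6 arrays of non-targeting control siRNA of its own experiment, likewise 2 sequences in 3 replicates. The methods describe 3 biological replicates, but no source used here says whether the 4 samples of a replicate were separate cultures, and p-values therefore measure only the spread between these arrays, which may be technical.

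In G1, D-type cyclins activate CDK4 and CDK6, which phosphorylate the retinoblastoma protein RB1 and so release E2F factors that drive the genes of S phase. INK4 inhibitors (CDKN2B, CDKN2C and CDKN2D) bind CDK4 and CDK6 themselves, whereas the CIP/KIP inhibitors (CDKN1A, known as p21, and CDKN1B, known as p27) act on cyclin-CDK complexes and chiefly restrain CDK2. CCND2 and CCND3 are the D-type cyclins that lymphoid cells mainly use. Expression was measured as log2 values of the RMA method, so a difference of 1 is a doubling, and RMA values tend to understate large differences.

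The siRNAs are shown because effects are given below for each of the 2 sequences. The study's list holds 2 sequences per gene, 5′ to 3′, and does not say which of them is sequence 1.
NFKB1 siRNA, order 1 in the list: ccaaaguauaaagauauua
NFKB1 siRNA, order 2 in the list: ggcucauguuuacagcuuu
RELA siRNA, order 1 in the list: cuuccaaguuccuauagaa
RELA siRNA, order 2 in the list: ggauugaggagaaacguaa
NFKB2 siRNA, order 1 in the list: ucauugagcagauagucua
NFKB2 siRNA, order 2 in the list: cugucaagaucuguaacua
RELB siRNA, order 1 in the list: guaggauucggaaaagauu
RELB siRNA, order 2 in the list: uggagaucaucgacgagua
With both sequences pooled, the targets stood at 26.5% (NFKB1) and 38.1% (RELA) of control in the p50/RelA KD and at 39.4% (NFKB2) and 82.0% (RELB) of control in the p52/RelB KD. These are RNA values from the arrays. The paper shows depletion of the subunits as proteins by western blot. Of the NF-κB genes not targeted, REL was at 67.5% of control in the p52/RelB KD (−0.57, limma adjusted p 0.000308), a lower share than that of RELB, NFKB1 at 111% there (adjusted p 0.0374), and NFKB2 at 87.8% in the p50/RelA KD (adjusted p 0.0457). The part of REL in the p52/RelB results was not tested.

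Array medians lay between 6.94 and 6.99 in the p50/RelA experiment and between 7.39 and 7.51 in the p52/RelB experiment, so levels were compared only within an experiment. The array of the p52/RelB KD with sequence 2 in replicate 3 stood apart, with a mean correlation of 0.986 to the other arrays of its arm, the lowest of the 24 arrays. It held the lowest CDK6, CDKN1B and RB1 values and the highest CCND3, CDKN2B and CDKN2D values of its arm, and p52/RelB values of the 9 genes whose call, sign or size changed clearly without it are given both ways. T cell markers averaged 5.99 to 6.57 on the p52/RelB KD arrays and 6.10 to 6.28 on their controls, and none of the tested T cell, myeloid and fibroblast markers was called in either KD. Of 8 markers of Hodgkin cells, 3 were called lower and 0 higher in each KD, and the other 5 were not called. Over all clusters tested, 0.825% were called lower in the p50/RelA KD and 5.75% in the p52/RelB KD. CCL22, a chemokine typical of HL cells, was at 9.76 in the p50/RelA KD and 10.51 in its control, and at 9.79 in the p52/RelB KD and 10.65 in its control. CD40, a receptor of B cells, was lower in the p50/RelA KD (−0.19, adjusted p 0.0275) and the p52/RelB KD (−0.29, adjusted p 0.000808). The chemokine CCL17 was lower in the p50/RelA KD (−0.44, adjusted p 0.000230), with 0.12 in the p52/RelB KD (adjusted p 0.179), and TRAF1, a TNF receptor adaptor, was lower in the p52/RelB KD (−0.23, adjusted p 0.0326), with −0.16 in the p50/RelA KD (adjusted p 0.143). Of 3 tested B cell genes listed as low in Hodgkin cells, CD22 was lower in the p52/RelB KD (−0.30, adjusted p 0.0228), and none was called in the p50/RelA KD. Whether CD22 was low in these cells was not tested, as no other B cells were measured. CD22 was at 9.28 in the control of the p50/RelA experiment, beside 7.03 for CD79A and 6.95 for CD79B. In the control of the p52/RelB experiment it was at 8.75, beside 7.39 and 7.28. The part of these markers in the results was not tested. TNFRSF8, which encodes the Hodgkin marker CD30, was at 9.20 in the p50/RelA KD and 9.21 in its control, and at 9.06 in the p52/RelB KD and 9.18 in its control.

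All 9 measured genes passed the filter on low values in both experiments. In the p50/RelA KD, CDKN1A was the only gene of the 9 called, at a limma adjusted p below 0.05 and a difference of at least 10%, and it was lower. Over all 14672 clusters tested there, 1.07% were called, 0.825% lower and 0.245% higher. In the p52/RelB KD, 4 of the 9 genes were called, CDKN1A and CDKN1B lower and CCND3 and CDKN2B higher, against 9.68% of the 16101 clusters tested, 5.75% lower and 3.93% higher. The 9 genes were chosen with earlier results of these data known, so their shares of calls are not a test. The median difference of the 9 genes was −0.05 in the p50/RelA KD, where that of all clusters tested was 0.0012, and 0.04 in the p52/RelB KD, where that of all clusters was 0.02. The KD and control arrays did not overlap for 1 of the 9 genes in the p50/RelA experiment (CDKN1A), against 1.11% of all clusters tested, and for 2 in the p52/RelB experiment (CDK4 and CDK6), against 5.27%. RNA came from whole cultures, so fewer cells with a transcript and less of it per cell cannot be told apart.

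**Figure D1:**
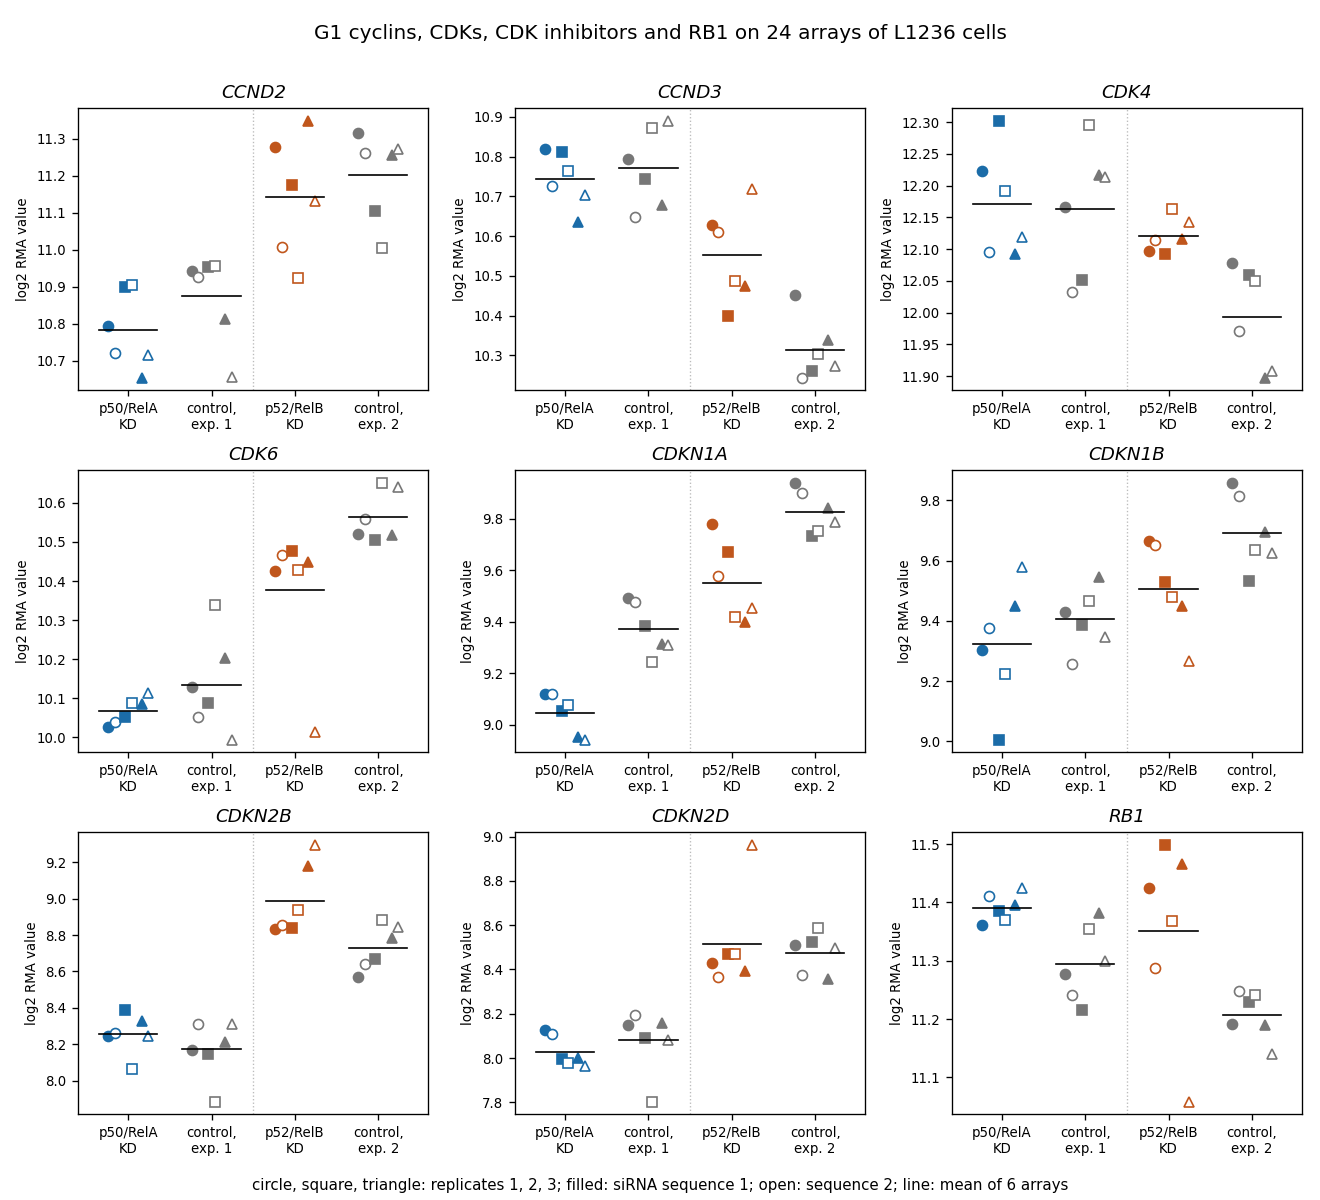
Log2 RMA values of the 9 measured genes on the 24 arrays, with each KD left of its own control, replicates as symbol shapes, siRNA sequence 1 filled and sequence 2 open, and the mean of 6 arrays as a line; y axes differ between genes. For CDKN1A all 6 p50/RelA KD arrays lay at or below 9.12 and all 6 control arrays at or above 9.24, and the p52/RelB KD array of replicate 3 with sequence 2 stood apart for CDK6 at 10.01 and CDKN2D at 8.96.

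Among the cyclins, CCND3 was higher in the p52/RelB KD. Its values ran from 10.40 over a median of 10.55 to 10.72 in the p52/RelB KD and from 10.24 over 10.29 to 10.45 in the control. The ranges overlapped through the replicate 1 control array with sequence 1 alone, and each of the 6 KD arrays was above the control mean of its own replicate, by 0.12 to 0.41. The KD effect was 0.24 ± 0.05 (SE), or 118% of control, with a limma adjusted p of 0.0120. It was 0.27, 0.16 and 0.29 in replicates 1, 2 and 3, and 0.20 with an adjusted p of 0.00409 without the array that stood apart. Without replicate 1 the adjusted p was 0.145 and without replicate 2 it was 0.0866. Under the p50/RelA KD, CCND3 ranged from 10.63 to 10.82 around a median of 10.75, against 10.65 to 10.89 around 10.77 in the control. There the arms overlapped nearly in full, and the effect of −0.03 ± 0.05 had an adjusted p of 0.931 and a 95% interval from −0.13 to 0.08.

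The other D-type cyclin, CCND2, was called in neither KD. It ran from 10.65 over 10.76 to 10.91 in the p50/RelA KD and from 10.66 over 10.93 to 10.96 in the control. Each of the 6 KD arrays was below the control mean of its replicate, by 0.02 to 0.21, and the effect of −0.09 ± 0.04 had an adjusted p of 0.408. Under the p52/RelB KD it ran from 10.92 over 11.15 to 11.35, against 11.01 over 11.26 to 11.31 in the control, an effect of −0.06 ± 0.06 with an adjusted p of 0.615, or −0.04 (adjusted p 0.731) without the array that stood apart. The arms overlapped in both experiments, and in the p52/RelB KD the siRNA sequences gave opposite signs, as described below.

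The kinases CDK4 and CDK6 were not called in either KD, although their arms did not overlap in the p52/RelB experiment. CDK4 was at 12.09 to 12.16 (median 12.11) in the p52/RelB KD and at 11.90 to 12.08 (median 12.01) in the control. All 6 KD arrays were thus above all 6 control arrays, but the effect of 0.13 ± 0.04, or 109% of control, fell short of 10% and had an adjusted p of 0.0575. Without the replicate 1 control array with sequence 1 it was 0.15 with an adjusted p of 0.0446, which would be called, and without the array that stood apart it was 0.11 with an adjusted p of 0.0357, still under 10%. CDK6 was at 10.01 to 10.48 (median 10.44) in the p52/RelB KD and at 10.51 to 10.65 (median 10.54) in the control, with every KD array below every control array. Its effect was −0.19 ± 0.07, with an adjusted p of 0.132, and without the array that stood apart it was −0.11, under the 10% limit, with an adjusted p of 0.0397. That array was 0.57 below the control mean of its replicate. Under the p50/RelA KD, CDK4 was at 12.09 to 12.30 (median 12.16) against 12.03 to 12.30 (median 12.19) in the control, and CDK6 at 10.03 to 10.11 (median 10.07) against 9.99 to 10.34 (median 10.11). The arms overlapped for both kinases there, with effects of 0.0076 ± 0.05 (adjusted p 0.986) for CDK4 and −0.07 ± 0.05 (adjusted p 0.754) for CDK6.

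Of the CIP/KIP inhibitors, CDKN1A was lower in both KDs. Under the p50/RelA KD its values ran from 8.94 over a median of 9.06 to 9.12, against 9.24 over 9.35 to 9.49 in the control. No KD array reached the lowest control array. The effect was −0.33 ± 0.04, or 79.8% of control, with an adjusted p of 0.000626, and it was −0.36, −0.25 and −0.36 in replicates 1, 2 and 3. Without replicate 1 the difference was −0.31 with an adjusted p of 0.0654. Under the p52/RelB KD, CDKN1A ran from 9.40 over 9.52 to 9.78, against 9.73 over 9.81 to 9.94 in the control. The replicate 1 KD array with sequence 1 reached into the control range, and the other 5 KD arrays were below it. The effect was −0.27 ± 0.05, or 82.7% of control, with an adjusted p of 0.00674, and it was −0.24, −0.20 and −0.39 in replicates 1, 2 and 3. Without replicate 1 the adjusted p was 0.0766, and without the array that stood apart it was 0.00373. All 12 KD arrays of both experiments were below the control mean of their own replicate.

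CDKN1B, the other CIP/KIP inhibitor, was lower in the p52/RelB KD, a call that 19 of 33 partly overlapping alternative settings lost. It ran from 9.27 over 9.50 to 9.66 in the p52/RelB KD and from 9.53 over 9.67 to 9.86 in the control. The arms overlapped between 9.53 and 9.66, while each KD array was below the control mean of its replicate, by 0.06 to 0.39. The effect was −0.19 ± 0.05, or 87.8% of control, with an adjusted p of 0.0264. The call was lost when any 1 replicate was left out (adjusted p 0.226, 0.0816 and 0.0522 without replicates 1, 2 and 3). It was also lost when any of 7 arrays was left out, namely both control arrays of replicate 1, both of replicate 3, the replicate 2 control array with sequence 2, and both KD arrays of replicate 1, with adjusted p between 0.0527 and 0.0719. Leaving out the array that stood apart gave −0.15 with an adjusted p of 0.00827, and the fit without the replicate block gave an adjusted p of 0.177. Under the p50/RelA KD, CDKN1B was at 9.01 to 9.58 (median 9.34) against 9.26 to 9.55 (median 9.41) in the control, an effect of −0.08 ± 0.07 with an adjusted p of 0.799. There the arms overlapped, and the difference was −0.0020, −0.31 and 0.07 in replicates 1, 2 and 3.

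Among the INK4 inhibitors, CDKN2B (p15) was higher in the p52/RelB KD. It ran from 8.83 over a median of 8.90 to 9.29 in the p52/RelB KD and from 8.57 over 8.73 to 8.88 in the control. The highest KD values were the 2 arrays of replicate 3, and each KD array was above the control mean of its replicate, by 0.06 to 0.48. The effect was 0.26 ± 0.06, or 120% of control, with an adjusted p of 0.0131. By replicate it was 0.24, 0.11 and 0.42, and without the array that stood apart it was 0.22 with an adjusted p of 0.00634. The adjusted p was 0.159 without replicate 1, 0.0520 without replicate 3 and 0.104 without the replicate block. As for the p50/RelA KD, CDKN2B was at 8.07 to 8.39 (median 8.25) against 7.89 to 8.31 (median 8.19) in the control, and the overlapping arms gave 0.08 ± 0.06 with an adjusted p of 0.759.

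CDKN2D, the other INK4 inhibitor measured, was not called. In the p52/RelB KD it was at 8.36 to 8.96 (median 8.45) against 8.36 to 8.59 (median 8.50) in the control. The effect of 0.04 ± 0.09 (adjusted p 0.831) rested on the array that stood apart, which was 0.53 above the control mean of its replicate while the other 5 KD arrays were below theirs, and without it the effect was −0.06 (adjusted p 0.314). Under the p50/RelA KD it was at 7.97 to 8.13 (median 8.0) against 7.80 to 8.20 (median 8.12) in the control, an effect of −0.05 ± 0.05 with an adjusted p of 0.832.

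RB1, the substrate of CDK4 and CDK6, was not called in either KD with all arrays. In the p52/RelB KD it was at 11.06 to 11.50 (median 11.40) against 11.14 to 11.25 (median 11.21) in the control. Of the 6 KD arrays, 5 were above every control array, and the array that stood apart was below every control array. The effect was 0.14 ± 0.06 with an adjusted p of 0.188, and without that array it was 0.20 with an adjusted p of 0.00347, which would be called. In the p50/RelA KD, RB1 was at 11.36 to 11.42 (median 11.39) against 11.22 to 11.38 (median 11.29) in the control. Each of the 6 KD arrays was above the control mean of its replicate, and the effect of 0.10 ± 0.04 was below the 10% limit and had an adjusted p of 0.317.

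**Figure D2:**
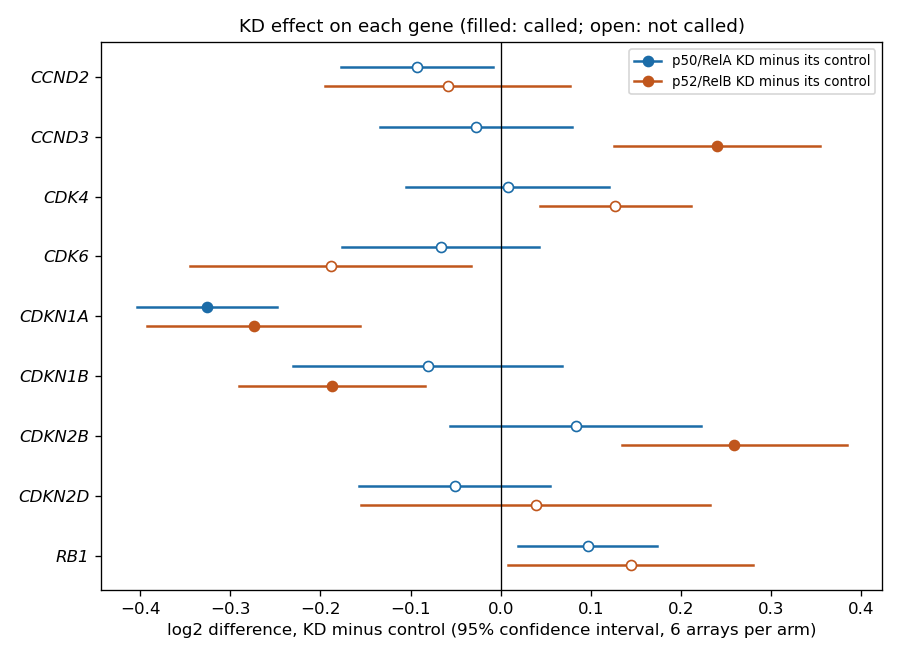
KD minus control on the log2 scale for each measured gene (x axis) in the p50/RelA and p52/RelB experiments, with 95% confidence intervals of the limma fit over 6 arrays per arm; filled points were called. CDKN1A is filled in both experiments, at −0.33 and −0.27, and CCND3, CDKN1B and CDKN2B are filled in the p52/RelB experiment.

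Arrays were scanned in batches that followed the replicates, so the values by replicate are also values within a batch, except that replicates 1 and 2 of the p52/RelB experiment shared a batch. Within that batch the p52/RelB effect was −0.22 for CDKN1A (adjusted p 0.0360), 0.22 for CCND3 (0.0180), −0.13 for CDKN1B (0.0522) and 0.18 for CDKN2B (0.0520), so that CDKN1A and CCND3 were called and CDKN1B and CDKN2B were not. RB1 was at 0.17 there (adjusted p 0.0320), which would be called. That fit holds the same arrays as the fit without replicate 3, so it is not a further check. The share of all clusters called in it is not given here.

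A single limma fit over the 24 arrays set the p52/RelB effect against the p50/RelA effect, and in it 4.35% of 14647 clusters were called. Of the 9 genes, CCND3 was called, with a p52/RelB effect of 0.24, a p50/RelA effect of −0.03 and a difference of 0.27 ± 0.07 (limma adjusted p 0.0375). That call did not hold when any 1 of the replicates was left out (adjusted p 0.148 to 0.204), without the block (0.0779), after a further quantile normalization (0.0545) or without the filter on low values (0.0570), and without the array that stood apart it was 0.23 with an adjusted p of 0.0415. For CDKN1A, the p52/RelB effect minus the p50/RelA effect was 0.05 ± 0.06, with a 95% interval from −0.08 to 0.19 and an adjusted p of 0.773. CDKN2B differed by 0.18 ± 0.09 (adjusted p 0.344) and CDKN1B by −0.11 ± 0.09 (adjusted p 0.617), or −0.07 (adjusted p 0.737) without that array, so the calls of these inhibitors in the p52/RelB KD alone were not shown to be particular to it.

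Each siRNA sequence was also set against all 6 controls of its experiment. For CDKN1A both sequences of the p50/RelA KD were called, at −0.33 ± 0.05 (adjusted p 0.0146) for sequence 1 and −0.32 ± 0.05 (adjusted p 0.0270) for sequence 2, where 0.327% and 0.191% of all clusters were called. With the other sequence's arrays left out of the fit, sequence 2 had an adjusted p of 0.0620. In the p52/RelB KD, where 5.36% of clusters were called for sequence 1 and 6.53% for sequence 2, CDKN1A was at −0.21 ± 0.06 with sequence 1 (adjusted p 0.0961, not called) and at −0.34 ± 0.06 with sequence 2 (adjusted p 0.0110, called). CCND3 was at 0.19 ± 0.06 (adjusted p 0.123) with sequence 1 and 0.29 ± 0.06 (adjusted p 0.0194) with sequence 2. CDKN2B was at 0.22 ± 0.07 (adjusted p 0.0993) with sequence 1 and 0.30 ± 0.07 (adjusted p 0.0272) with sequence 2. CDKN1B was at −0.15 ± 0.06 (adjusted p 0.239) with sequence 1 and −0.23 ± 0.06 (adjusted p 0.0508) with sequence 2. All 4 of these genes thus had effects of the same sign with both sequences, and none was called between the sequences. When the array that stood apart was left out, the sequence 1 effects were the same but their errors smaller, and 13.6% of clusters were then called for sequence 1 and 8.94% for sequence 2. In that fit all 4 genes were called with sequence 1, at adjusted p of 0.0311 for CDKN1A, 0.0216 for CCND3, 0.0192 for CDKN2B and 0.0433 for CDKN1B. With sequence 2, CDKN1A was at −0.37 (adjusted p 0.00801), CCND3 at 0.23 (0.0302) and CDKN2B at 0.23 (0.0479), all called, and CDKN1B at −0.16 (0.0922), not called.

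Between the sequences of the p52/RelB KD, CCND2 had the largest difference among the 9 genes, with or without the array that stood apart, and RB1 came next over all arrays. CCND2 averaged 11.27 ± 0.09 with sequence 1 and 11.02 ± 0.10 with sequence 2 (SD, n = 3 each), against 11.20 ± 0.12 in the control (SD, n = 6). Set against the controls, sequence 1 gave 0.06 ± 0.05 and sequence 2 gave −0.18 ± 0.05 (adjusted p 0.0513), or −0.20 with an adjusted p of 0.0275, which would be called, without that array. RB1 gave 0.26 ± 0.06 with sequence 1 (adjusted p 0.0278, called) and 0.03 ± 0.06 with sequence 2 (adjusted p 0.722), and without that array sequence 2 gave 0.11 ± 0.04 (adjusted p 0.160). Sequence 1 minus sequence 2 was 0.25 ± 0.06 for CCND2 and 0.22 ± 0.06 for RB1, each with a limma adjusted p of 0.506. Without that array it was 0.27 for CCND2 (adjusted p 0.251) and 0.15 for RB1 (adjusted p 0.542), and CDKN1A, at 0.16 (adjusted p 0.724), then exceeded RB1. Leaving out all of replicate 3 gave 0.13 for RB1 (adjusted p 0.811). No cluster, 0 of 16101 (0%), was called in that contrast, although 1536 clusters (9.54%), with 2 of the 9 genes among them, had an unadjusted p below 0.05. In the p50/RelA KD, 0 of 14672 clusters (0%) were called by limma between the sequences, and 514 (3.50%), none of them a gene described here, had an unadjusted p below 0.05.

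**Figure D3:**
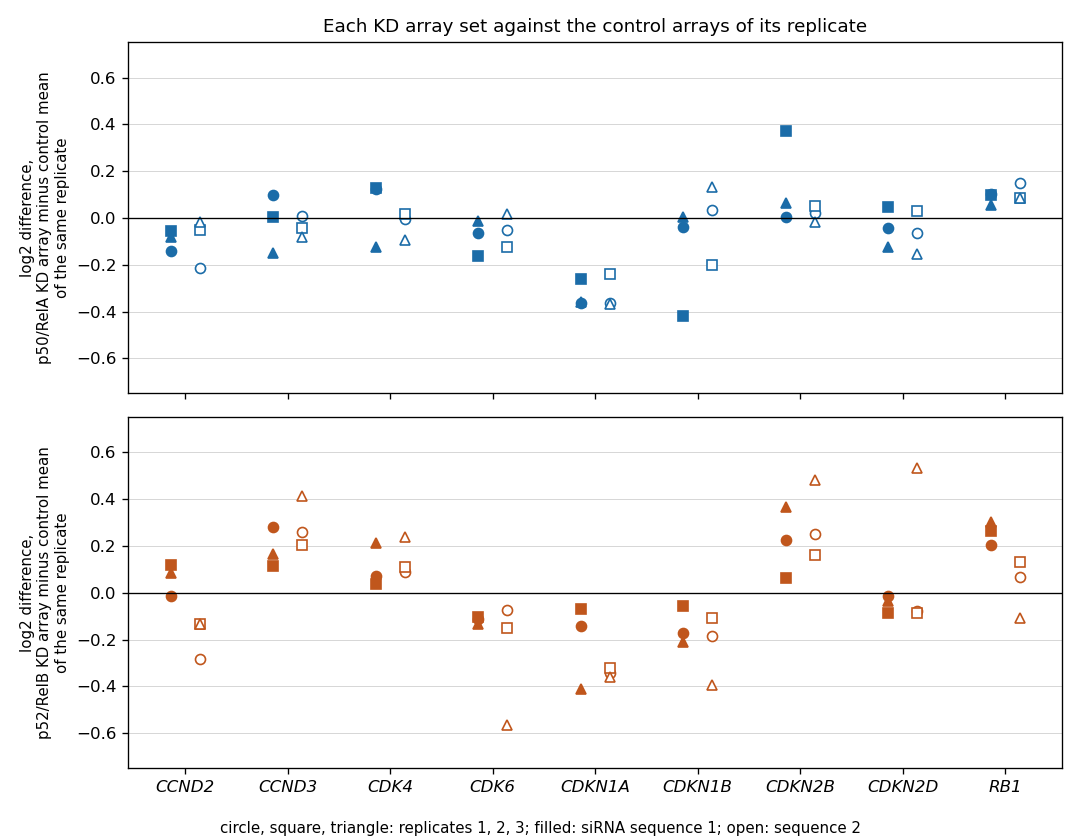
Each KD array minus the mean of the control arrays of its own replicate (log2, y axis) for the 9 genes, p50/RelA KD above and p52/RelB KD below, with replicates as symbol shapes, siRNA sequence 1 filled and sequence 2 open. CDKN1A is below 0 on all 12 KD arrays, CCND3, CDK4 and CDKN2B are above 0 on all 6 p52/RelB KD arrays, and CCND2 in the p52/RelB KD splits by sequence.

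Genes around the members were read from lists of known function. These lists were chosen with earlier results of these data known, so their shares of calls are not tests. Of 36 G1/S partners (other cyclins, CDKs, E2F and DP factors, RB1 relatives and SCF components), measured by 40 clusters, 1 was lower in the p50/RelA KD and 0 higher, and 2 were lower and 3 higher in the p52/RelB KD. Over all clusters tested, 1.07% were called in the p50/RelA KD and 9.68% in the p52/RelB KD. TFDP2, a DP partner with which E2F factors bind DNA, was lower in both KDs. It was at 10.75 against 10.90 in the control of the p50/RelA experiment (−0.15 ± 0.03, adjusted p 0.0417). In the p52/RelB experiment it was at 10.62 against 11.14 (−0.51 ± 0.06, adjusted p 0.000152). TFDP1, another DP factor on the list, was called in neither. Its effect was −0.02 ± 0.05 in the p50/RelA KD (limma adjusted p 0.938) and 0.05 ± 0.04 in the p52/RelB KD (limma adjusted p 0.476). FBXW7, which marks cyclin E for degradation, was lower in the p52/RelB KD (−0.18 ± 0.05). Higher there were E2F7, an E2F that represses (0.27 ± 0.06), E2F1, an E2F that activates (0.18 ± 0.04), and CDK2, the kinase that CDKN1A and CDKN1B inhibit (0.19 ± 0.05). The list's median was 0.0049 in the p50/RelA KD and 0.0048 in the p52/RelB KD, beside medians over all clusters tested of 0.0012 in the p50/RelA KD and 0.02 in the p52/RelB KD. CDK7 had the largest difference of the list in the p50/RelA KD, −0.22 with an adjusted p of 0.387. Its 2 clusters hold the same values and are 1 measurement.

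E2F targets of S phase, 25 of 26 listed genes tested by 26 clusters, had 0 calls by limma in the p50/RelA KD, where 1.07% of all clusters were called. In the p52/RelB KD, where 9.68% of all clusters were called and 3.93% were called higher, they had 3 calls, all higher. These were CDC45, part of the replicative helicase (10.33 against 10.13 in the control, 0.19 ± 0.04), ORC1, of the origin recognition complex (0.16 ± 0.04), and FEN1, a flap endonuclease (0.15 ± 0.04). The list's median was 0.02 in the p50/RelA KD and 0.06 in the p52/RelB KD. CDKN1A is a p53 target, and of 21 other p53 targets tested, 1 was higher in the p50/RelA KD, and 1 was higher and 2 lower in the p52/RelB KD. The same shares of all clusters, 1.07% and 9.68%, stand beside these counts. DDB2, which recognises DNA damage, was higher in the p50/RelA KD (0.22 ± 0.04) and the p52/RelB KD (0.38 ± 0.04), opposite in sign to CDKN1A, and CCNG1 (−0.21 ± 0.05) and TNFRSF10B (−0.20 ± 0.04) were lower in the p52/RelB KD. The median of the p53 targets was 0.0018 in the p50/RelA KD and −0.0058 in the p52/RelB KD.

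The last list held transcription factors known to act on these genes. Of 21 tested in the p50/RelA KD, 3 were lower and 1 higher, and of 22 tested in the p52/RelB KD, 4 were lower and 3 higher. Over all clusters tested, 1.07% were called in the p50/RelA KD and 9.68% in the p52/RelB KD. The list was chosen with earlier results of these data known, and the paper already names HEY1, STAT5A and BCL6 as NF-κB targets. Its share of calls is therefore not a test. HEY1, a Notch effector, was lower in the p50/RelA KD (−0.39 ± 0.04) and the p52/RelB KD (−0.69 ± 0.06). STAT5A, a cytokine-activated factor, was also lower in the p50/RelA KD (−0.29 ± 0.05) and the p52/RelB KD (−0.46 ± 0.05). BCL6, the repressor of germinal centre B cells, was higher in the p50/RelA KD (0.32 ± 0.05) and the p52/RelB KD (0.20 ± 0.05). JUN was lower in the p50/RelA KD (−0.27 ± 0.05), and in the p52/RelB KD PRDM1, which encodes the plasma cell factor Blimp-1, was lower (−0.40 ± 0.05), as was STAT5B (−0.18 ± 0.04), while RUNX1 (0.33 ± 0.06) and E2F1, which is on both lists, were higher. The median of this list was −0.01 in the p50/RelA KD and −0.04 in the p52/RelB KD.

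**Figure D4:**
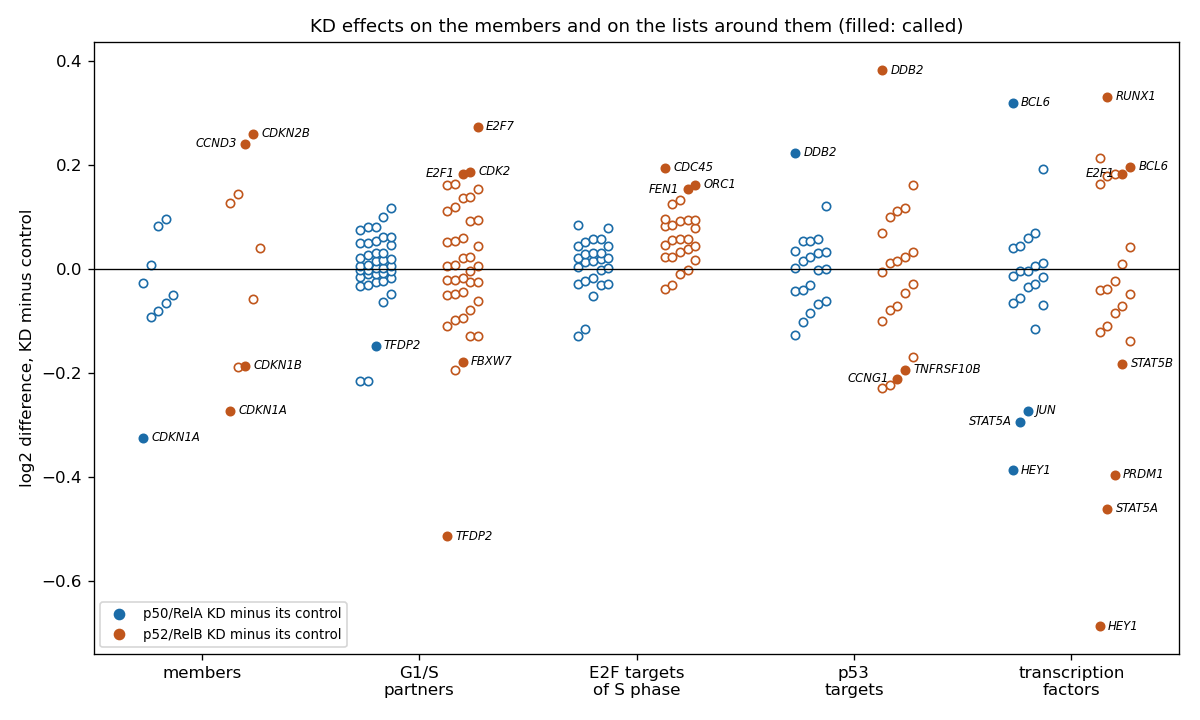
KD minus control on the log2 scale (y axis) for the 9 measured genes and for the clusters of 4 lists around them (x axis), p50/RelA KD left and p52/RelB KD right within each list; filled and named points were called. Most clusters of the G1/S partners lie near 0 in the p50/RelA KD, and TFDP2 at −0.51 and HEY1 at −0.69 in the p52/RelB KD lie farthest from 0.

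For each called gene, the 5 clusters with the most similar pattern were taken from values centred on the mean of each replicate of each experiment (Pearson r over 24 arrays, which share the KD design and the array that stood apart). Values so centred keep the KD effect, so shared signs of that effect follow in part from this choice and are not a test. For CDKN1A these were HAPLN3 (r = 0.910), MYO1C (0.904), NFKBID (0.899), TRIP10 (0.894) and TAPBP (0.887), and all 5 had negative KD effects in both experiments, HAPLN3 of −0.54 in the p50/RelA KD and −0.37 in the p52/RelB KD. For CCND3 they were LDLRAD4 (0.908), TMEM109, SBDS, DOLK and ALG3, whose effects lay between −0.05 and 0.0029 in the p50/RelA KD and between 0.14 and 0.22 in the p52/RelB KD. For CDKN1B they were WDR59 (0.902), ZBTB34, TMEM135, EIF2S2 and CARS1, and for CDKN2B SPEN-AS1 (0.871), NOXO1, GADD45G, ZMYND19 and CES1.

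The 250 bases before the start sites in RefSeq (GRCh38.p14) were searched for 8 of the 9 measured genes on both strands. CCND2 had no start site in the set used and was not searched. The paper names CCND2 among known targets that canonical and non-canonical subunits bound but that it did not find regulated in the KDs. It offers redundancy among the subunits or the strictness of its thresholds as possible reasons, which was not tested here. The stretches are shown for CDKN1A and CDKN1B, the inhibitors that were lower, and CDKN2B, the inhibitor that was higher, with each GC box (GGGCGG, on either strand) in capitals.
CDKN1A, plus strand, chr6:36678464-36678713: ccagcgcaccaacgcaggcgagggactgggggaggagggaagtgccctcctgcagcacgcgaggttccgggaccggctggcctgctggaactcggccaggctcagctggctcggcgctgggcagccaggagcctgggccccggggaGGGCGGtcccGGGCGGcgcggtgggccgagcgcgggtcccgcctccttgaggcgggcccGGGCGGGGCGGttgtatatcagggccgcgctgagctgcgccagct
CDKN1B, plus strand, chr12:12717118-12717367: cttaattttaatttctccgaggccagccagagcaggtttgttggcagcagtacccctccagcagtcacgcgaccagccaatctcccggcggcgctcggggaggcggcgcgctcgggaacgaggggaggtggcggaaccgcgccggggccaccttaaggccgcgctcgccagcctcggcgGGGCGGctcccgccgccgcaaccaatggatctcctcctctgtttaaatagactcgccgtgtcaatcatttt
CDKN2B, minus strand, chr9:22009306-22009555: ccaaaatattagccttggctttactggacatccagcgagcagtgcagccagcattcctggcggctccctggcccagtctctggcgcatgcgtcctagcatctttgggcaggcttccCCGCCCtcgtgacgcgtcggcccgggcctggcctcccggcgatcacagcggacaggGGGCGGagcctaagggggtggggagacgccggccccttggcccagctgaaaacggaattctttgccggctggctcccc
The κB consensus had no match in the stretches of any of the 8 genes searched, and 9.96% of all 35116 stretches of this length hold a match. The E2F core TTTNNCGC was matched in CDKN2D alone, and in 5.92% of all stretches. GC boxes numbered 4 in CDKN1A, 1 in CDKN1B and 2 in CDKN2B, a motif found in 42.6% of all stretches. Genes that were not called held them too, with 3 in CDK4, 3 and 0 before the start sites of CDK6, and 2 in CDKN2D, while RB1 had 0. CCND3 had 5, 2 and 0 before its start sites. No match says only that these letters are not in this window.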

How the data were processed

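Total RNA of L1236 cells was hybridised to Affymetrix Human Gene 1.0 ST arrays, 12 in each of 2 experiments. The authors deposited log2 values per transcript cluster after RMA in oligo, which corrects the background, quantile-normalizes the arrays and summarizes probes, in a version that no source used here names. The methods adjust for covariates that they do not name, and the deposited values still differed by replicate. The array medians differed between the experiments, which were therefore never set against each other by level. There is no detection call, and precision is limited by how many arrays there are.

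The table held 33297 clusters, of which 19460 had 1 symbol in the platform annotation, 1754 had several and 12083 were not listed. Symbols were updated through RefSeq (19429 matched, 31 kept). Clusters below 6 in 50% or more of the 12 arrays were left out. KD minus control was fitted in limma 3.58.1 (R 4.3.3; lmFit and eBayes) over all remaining clusters with a symbol, with the replicate as a block, and p-values were adjusted by Benjamini-Hochberg. A call needed an adjusted p below 0.05 and a difference of at least 10%. These thresholds are the methods' own, with limma in place of a plain two-sample test. Replicate numbers were taken as pairs because the deviations of the control and KD means of the same replicate correlated at 0.448, 0.195 and 0.251 in the p50/RelA experiment and at 0.574, 0.268 and 0.377 in the p52/RelB experiment. Scan batches 1, 2 and 3 were replicates 1, 2 and 3 of the p50/RelA experiment; in the p52/RelB experiment replicate 3 was batch 4 and the other replicates batch 5. No arrays were duplicates (highest correlation 0.998, at most 0.0631% identical values). The fits were tested on simulated data.

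The genes and the lists were chosen with earlier results of these data known. All genes were described; list genes were named only where called or largest in size, apart from the Hodgkin marker TNFRSF8. siRNA sequences came from the study's supplementary text and promoter stretches from RefSeq. The GC box and the fits of the contrasts between KDs and of the sequences without 1 outlying array were added after the data were seen. Alternatives varied the block, the arrays, the normalization, the filter and the test.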

Additional observations from a re-analysis of the deposited data

Results flagged for a closer look

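An array lay far from the other 5 of its arm for 3 of 36 sets of 6 arrays checked (9 genes in 4 arms), where chance marks about 1 in 20. CDK6 was at 10.01 and CDKN2D at 8.96 on the p52/RelB KD array of replicate 3 with sequence 2, beside the nearest other KD values of 10.43 and 8.47. CDKN2D was at 7.80 on the control array of the p50/RelA experiment from replicate 2 with sequence 2, beside 8.08. That array had the lowest mean correlation of its experiment with its own arm, 0.993. The effect on CCND3 differed between the KDs by 0.27, p52/RelB effect minus p50/RelA effect, in the fit over all 24 arrays. The part of these arrays in the other results was not tested beyond leaving them out.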

How the results depend on the processing

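Of the genes called, CDKN1A kept its call under 27 of 32 alternatives in the p50/RelA KD and 28 of 33 in the p52/RelB KD, CCND3 under 27, CDKN2B under 23 and CDKN1B under 14 of 33, and no called gene changed sign. Without the replicate block, limma called 59 clusters in place of 157 in the p50/RelA KD, 880 in place of 1559 in the p52/RelB KD and 250 in place of 637 for the difference between the KDs, and the genes called numbered 1 in place of 1, 2 in place of 4 and 0 in place of 1. Further quantile normalization and no filter on low values also left 0 genes for the difference. The methods' t-test on the values as deposited called 30 and 725 clusters after Benjamini-Hochberg adjustment, with 1 of the genes in the p52/RelB KD, and on replicate-adjusted values 276 and 1768 clusters. Array weights raised the counts to 337 and 2261 clusters. Sequence 2 alone left 0 genes called in the p50/RelA KD and 2 in the p52/RelB KD. Averaging the sequences within a replicate left 1 in the p52/RelB KD, and each replicate alone (2 arrays per arm) left 0 in both. Few clusters of any kind were called in such settings. Of 14672 clusters in the p50/RelA KD, 11 were called with sequence 2 alone and 18 without replicate 1. Within replicates 1, 2 and 3 alone it was 4, 1 and 0. The p50/RelA effect on CDKN1A stayed between −0.36 and −0.25 in all settings. Clusters called in the p52/RelB KD ranged from 0 to 2311 over its settings. Leaving out 1 replicate or array gave 0 to 1 genes in the p50/RelA KD, 0 to 5 in the p52/RelB KD and 0 to 1 for the difference; the 0 came without replicate 1 in each case, and for the difference also without replicates 2 and 3. No setting called a gene or a cluster between the siRNA sequences.

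Signs turned only for values that were not called. Within single replicates, the p50/RelA KD gave 0.053 for CCND3 (replicate 1), 0.039 for CDKN2D (replicate 2), and −0.11 for CDK4, 0.0010 for CDK6 and 0.068 for CDKN1B (replicate 3), and sequence 2 alone gave −0.028 for CDK4. In the p52/RelB KD, CDKN2D gave −0.046 and −0.087 in replicates 1 and 2, −0.067 within scan batch 5, −0.045 with sequence 1 alone and −0.053 with array weights, and CCND2 gave 0.064 with sequence 1 alone. When 1 replicate or array was left out, the p50/RelA effects ranged from −0.068 to 0.016 for CCND3, −0.031 to 0.066 for CDK4 and −0.16 to 0.033 for CDKN1B, the p52/RelB effect on CDKN2D from −0.067 to 0.10, and p52/RelB minus p50/RelA from −0.27 to 0.027 for CDKN1B and −0.059 to 0.20 for CDKN2D. The causes were not tested. With 6 arrays per arm, standard errors over all clusters had a median of 0.05 on the log2 scale.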
